A study of Homo sapiens with 13 samples.

Results

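The insulin-like growth factor (IGF) family was followed in cultured human osteoblasts through 10 genes: the ligands IGF1 and IGF2, the receptor IGF1R and the binding proteins IGFBP1 to IGFBP7. The members were the rows of the deposited count table whose Ensembl identifier carries one of these symbols. All 10 were found among 43836 genes, and 8 of them held enough reads to be tested, among 17092 genes in all. IGF1 and IGFBP1 fell below that limit and are given as reads.

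The cells were hFOB 1.19, 1 immortalized line of human fetal osteoblasts, which are the cells that form bone. The 2 positive control libraries came from cells kept in 10% fetal bovine serum and the 2 negative control libraries from cells without serum, both with the DMSO vehicle. Per the study's methods the treated cells were serum-starved as the negative controls were, and then received 1 µg/mL of a compound. This was RES (resveratrol, a stilbene, 3 libraries) or POG (peonidin-3-O-glucoside, an anthocyanin, 3 libraries). A further group was labelled DEG (2 libraries). The paper's methods do not name DEG, which is taken here to have had the same starvation and dose. No label spells out DEG. The treatment label of POG carries a different prefix from those of RES and DEG, and the labels do not explain it. The treatment note names delphinidin-3-glucoside beside the other compounds. A single immortalized line in a serum-free culture limits these groups as a model of bone, and nothing in the labels says whether the libraries of a group came from separate cultures, so the p-values measure the spread between libraries only.

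IGF1 and IGF2 act mainly through IGF1R, a receptor tyrosine kinase that signals through the IRS adaptors, PI3-kinase and AKT. The binding proteins IGFBP1 to IGFBP6 hold the ligands with high affinity outside the cell and can block or prolong their action, while IGFBP7 binds them weakly. In bone, osteoblasts secrete IGFs and several binding proteins, of which IGFBP4 is known mostly as an inhibitor, IGFBP5 is stored in the matrix, and IGFBP6 prefers IGF2. The protease PAPPA cuts IGFBP4 and frees the ligand.

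Several members sit in pairs in the genome. On chromosome 2 of hg38, IGFBP2 (216632828 to 216664436, plus strand) and IGFBP5 (216672105 to 216695549, minus strand) are separated by 7668 bases. On chromosome 7, IGFBP1 (45888360 to 45893660, plus strand) and IGFBP3 (45912245 to 45921874, minus strand) are separated by 18584 bases. IGFBP4 lies on chromosome 17 (40443450 to 40457725), IGFBP6 on chromosome 12 (53097436 to 53102345), IGFBP7 on chromosome 4 (57030773 to 57110385), IGF2 on chromosome 11 (2129112 to 2158391) and IGF1R on chromosome 15 (98648539 to 98964530). Of each pair 1 gene, IGFBP5 or IGFBP3, rose with serum, while IGFBP2 did not pass the test and IGFBP1 had almost no reads.

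The promoters of IGFBP3 and IGFBP5, the members with the largest rise with serum, and of IGFBP4, the most abundant member, are shown as the 250 bases before the RefSeq start (GRCh38.p14). The table of promoters held 7 of the 10 members. Capitals mark the GC box GGGCGG on either strand and the TATA box TATAAA.
IGFBP3, chr7:45921273-45921522, minus strand: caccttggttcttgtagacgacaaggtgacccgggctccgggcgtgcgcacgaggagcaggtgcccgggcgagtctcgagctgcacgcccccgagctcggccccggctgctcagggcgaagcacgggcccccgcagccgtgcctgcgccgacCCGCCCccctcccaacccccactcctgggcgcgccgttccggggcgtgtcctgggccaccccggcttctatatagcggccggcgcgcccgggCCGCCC
IGFBP5, chr2:216695550-216695799, minus strand: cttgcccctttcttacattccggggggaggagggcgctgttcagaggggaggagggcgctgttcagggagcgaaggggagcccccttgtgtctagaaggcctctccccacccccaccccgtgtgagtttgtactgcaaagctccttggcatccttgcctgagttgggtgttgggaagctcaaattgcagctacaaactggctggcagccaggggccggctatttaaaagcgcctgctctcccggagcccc
IGFBP4, chr17:40443200-40443449, plus strand: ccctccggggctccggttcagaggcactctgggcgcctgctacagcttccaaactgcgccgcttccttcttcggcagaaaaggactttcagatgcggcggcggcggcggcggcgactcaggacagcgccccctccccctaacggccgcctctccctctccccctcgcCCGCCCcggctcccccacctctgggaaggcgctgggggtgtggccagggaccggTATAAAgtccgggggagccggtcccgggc

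Of these windows that of IGFBP3 was the richest in G and C (76% of its bases) and that of IGFBP5 was at 61.2%. The IGFBP3 window lies in an intron of another annotated IGFBP3 transcript with an earlier start, and that of IGFBP5 overlaps the antisense gene DIRC3-AS1. IGFBP3 held 2 GC boxes, IGFBP4 held 1 GC box and a TATA box, and IGFBP5 held neither string. Among 35116 promoters of the same length, 42.6% held the GC box and 10.7% the TATA box. For IGFBP6, the member that RES raised, the window held 1 GC box and the forkhead string GTAAACA. That string was found in 2.98% of promoters and also in a window of IGF1, which had almost no reads. For IGFBP6, 30 bases that hold each match are given with the match in capitals. An exon of another IGFBP6 transcript overlaps the IGFBP6 window, so no longer stretch is shown.
IGFBP6, chr12:53097471-53097500, plus strand: aatttgggaaGTAAACAgaaactggaaagg
IGFBP6, chr12:53097637-53097666, plus strand: acttaagacagagGGGCGGcggcgggcagc

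The AP-1 string TGANTCA (both strands) matched none of the members' windows, against 6.57% of all promoters, and the CArG box, bound by serum response factor, matched 1 member, IGFBP2, against 1.16% of all promoters. A match is a description of these letters and says nothing of whether a factor was bound.

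Libraries held 38464619 to 51416358 counted reads. The cells carried osteoblast transcripts: of 9 osteoblast markers 7 passed the limit on reads, led by COL1A1 at 2480 to 2860 CPM (group means). RUNX2 stood at 45.6 to 49.4 CPM. ALPL (3.46 to 6.63 CPM), SPP1 (1.24 to 2.16) and BGLAP (0.912 to 1.6) were low, and IBSP and SP7 were almost without reads. CPM are read counts relative to the library total, which was scaled by TMM. Of the fat cell markers LPL had no read and PLIN1 stood at 0.647 to 0.999 CPM (group means), and of the blood cell markers CD3E had no read and CD14 stood at 0.527 to 1.4 CPM. KRT8, KRT18 and TEK, listed for epithelial and endothelial cells, were expressed, and the 4 chondrocyte markers, all of which passed the limit, summed to 4.08 to 8.08 CPM. The osteoblast markers summed to 5460 to 5530 CPM in positive controls, 5270 to 5310 in negative controls, 4900 to 5030 in RES, 4760 to 4790 in POG and 4760 to 4770 in DEG. The 4 epithelial markers (3 passed the limit) summed to 464 to 506 CPM in positive controls and 443 to 455 in RES. Their sums were 397 to 405 CPM in negative controls, 364 to 369 in DEG and 337 to 348 in POG. The 4 proliferation markers summed to 1800 to 1990 CPM in positive controls and 1900 in negative controls. Their sums were 1720 to 1760 CPM in RES, 2030 to 2060 in POG and 2000 in DEG. The part of these in the results was not tested. The positive control pair differed more than other pairs: its squared difference per gene was 11 times the Poisson value against 2.07 to 2.67 elsewhere, and its log2 ratio (replicate 1 over 2) fell with transcript length (Spearman −0.297 across 16961 genes, against −0.0192 to 0.0202 in the other 8 pairs). Genes are not independent replicates, and the Poisson intervals given for IGF1 and IGFBP1 cover counting error only, since reads were counted without molecular identifiers.

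The levels of the members spanned a wide range, and a binding protein led them. Per kilobase of the longest transcript, IGFBP4 averaged 780 CPM per kb over the 12 libraries (range 702 to 873), IGFBP7 413 (365 to 440), IGFBP6 50.7 (33.6 to 93.6) and IGF1R 14.1 (10.8 to 15.3). These ranges did not overlap. The remaining members did overlap over the 12 libraries: IGF2 stood at 2.13 CPM per kb (1.73 to 3.11), IGFBP3 at 1.45 (0.595 to 3.93), IGFBP2 at 0.603 (0.496 to 0.881) and IGFBP5 at 0.487 (0.16 to 1.45). The order of these means was the same with merged exons as the length, but among the last 4 it turned with serum: in the positive controls IGFBP3 averaged 3.87 CPM per kb against 3.08 for IGF2, and IGFBP5 averaged 1.45 against 0.584 for IGFBP2.

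**Figure D1:**
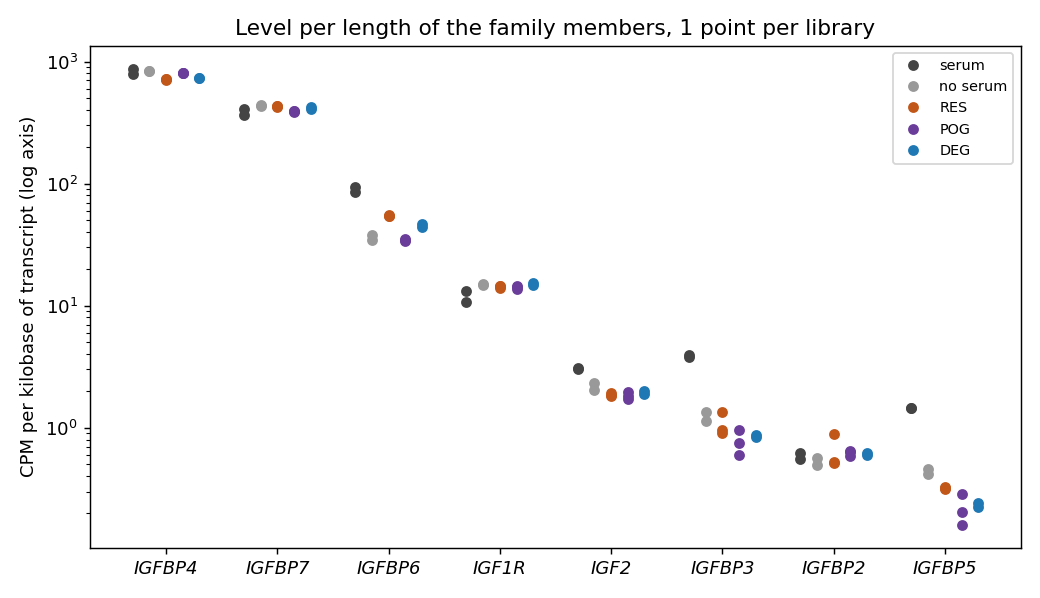
Level of the 8 tested members in CPM per kilobase of the longest transcript (log axis), with 1 point per library coloured by group. IGFBP4 sits highest in every library, between 702 and 873, and IGFBP3 and IGFBP5 lie under 4 with the serum libraries above the rest.

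IGF1 was essentially not expressed. It had 2 reads in the 12 libraries together, 1 in a negative control and 1 in a POG library, out of 517973454, or 0.00386 CPM by plain totals (95% exact Poisson interval 0.000468 to 0.0139). IGF2 was therefore the ligand whose mRNA could be followed in these cells. IGFBP1, a binding protein best known from liver, had 12 reads in all: 4 and 4 in the positive controls, 2 and 0 in the negative controls, 0, 1 and 1 in RES, and none in POG or DEG. Positive controls stood at 0.0842 CPM (0.0364 to 0.166) and negative controls at 0.0253 (0.00307 to 0.0914), 3.33 times as much, and counting error alone allowed 0.664 to 32.2 times (95%). Between these 2 groups a difference was not detectable at this depth. The interval of POG, 0 to 0.0275 CPM, lay below that of the positive controls, while those of RES and DEG overlapped with it. These differences were not tested.

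The first comparison asked what serum does to the family. Serum raised IGF2 and the binding proteins IGFBP3, IGFBP5 and IGFBP6, and lowered IGF1R and IGFBP7. Of 8 tested members 6 were called (FDR under 0.05, edgeR exact test), 4 higher and 2 lower, while 42.4% of all tested genes were called (21.4% higher, 20.9% lower). The median log2 fold change was 0.32 over the members and −0.01 over all genes. In these bulk samples fewer cells of a kind and less RNA per cell cannot be told apart.

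IGFBP5 showed the largest rise. The positive controls held 9.05 and 9.01 CPM and the negative controls 2.61 and 2.87, a 3.29-fold increase (log2 fold change 1.72, SE 0.162, edgeR FDR 2.89e-27). IGFBP3, the main carrier of IGFs in blood, moved almost as far, with 10 and 10.3 CPM against 2.97 and 3.55 (3.12-fold, log2 fold change 1.64, SE 0.164, edgeR FDR 3.54e-22). In both genes every serum library lay above all 10 serum-free libraries. The chondrocyte marker SOX9 also moved with serum, from 2.67 to 6.11 CPM (group means, edgeR FDR 1.8e-10), while the chondrocyte marker COL2A1 went from 1 to 0.257 CPM (edgeR FDR 2.86e-06), and their part in the result was not tested. IGFBP6 stood at 110 and 99.7 CPM with serum and at 40.3 and 44.2 without it (2.48-fold, log2 fold change 1.31, SE 0.0525, edgeR FDR 1.44e-126). It also lay above all serum-free libraries. IGFBP6 is abundant enough that the balance of binding protein mRNA moved: its share of the summed level per length of IGFBP1 to IGFBP6 went from 4.1% ± 0.24 to 9.62% ± 0.0203 (SD, n = 2 and 2), while IGFBP4 went from 95.6% ± 0.251 to 89.7% ± 0.0379.

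IGF2, the fetal growth factor, held 17.3 and 17 CPM with serum and 11.4 and 13 without it (1.41-fold, log2 fold change 0.49, SE 0.0855, edgeR FDR 6.53e-08). Its exons overlap the read-through gene INS-IGF2, which had 3 reads in all. They also overlap IGF2-AS on the other strand and further genes on the same strand, for which no counts were found. How reads in shared exons were counted is not given in the sources used here. IGF1R fell from 185 and 180 CPM to 132 and 160 with serum (log2 fold change −0.32, SE 0.0508, edgeR FDR 2.1e-08). The serum libraries were the lowest of the 12 but lay apart from each other, and the change was −0.19 without positive control replicate 1 and −0.46 without replicate 2, called in both cases. IGFBP7, a matrix-associated relative of the family, stood at 588 and 521 CPM against 628 and 622 (log2 fold change −0.17, SE 0.0357, edgeR FDR 1.78e-04), and its change was −0.08 without positive control replicate 2 and −0.26 without replicate 1. Its exons overlap POLR2B on the other strand, which had 5387 to 6944 reads per library.

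The remaining members did not pass with serum. IGFBP4 had 1920 and 1750 CPM with serum and 1840 and 1850 without it, so the negative controls lay within the span of the positive controls (log2 fold change −0.01, SE 0.03, edgeR FDR 0.886). Without positive control replicate 1 its change was −0.08 (edgeR FDR 0.0107) and without replicate 2 it was 0.07 (edgeR FDR 0.0205), so no direction can be given. IGFBP2 held 2.43 and 2.73 CPM against 2.48 and 2.19 (log2 fold change 0.14, SE 0.214, edgeR FDR 0.671).

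**Figure D2:**
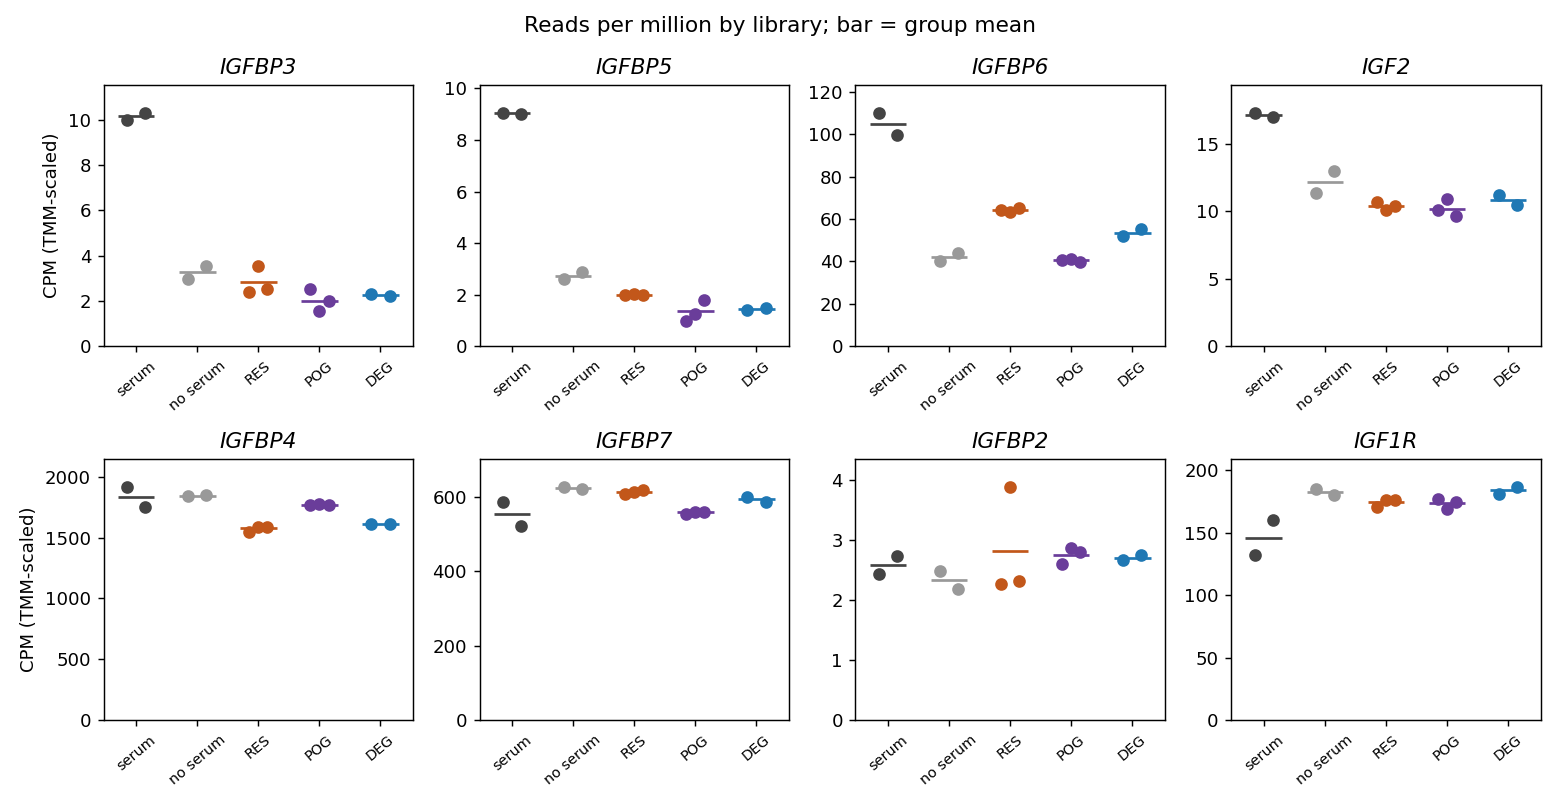
CPM of each tested member by library (points) and group mean (short lines), with the axis of each panel starting at 0; serum marks the positive controls and no serum the negative controls. IGFBP3, IGFBP5, IGFBP6 and IGF2 are highest in both serum libraries, and IGFBP6 is also raised in the 3 RES libraries (63.5 to 65.1 CPM).

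The next comparisons asked whether a compound moved the family in serum-starved osteoblasts. They share the negative control libraries, so their values are given side by side. RES raised 1 member, IGFBP6, and lowered 1, IGFBP4, out of 8 tested, while 11.2% of all genes were called (4.94% higher, 6.21% lower). POG raised none and lowered 4, namely IGF2, IGFBP3, IGFBP5 and IGFBP7 (14.5% of all genes called, 5.93% higher and 8.57% lower). DEG raised IGFBP6 and lowered IGFBP4 and IGFBP5 (9.63% of all genes called, 3.52% higher and 6.11% lower). The median log2 fold change of the members was −0.14 with RES, −0.12 with POG and −0.12 with DEG, against medians near 0 over all genes.

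IGFBP6 was the member that RES changed most. The RES libraries held 64.3, 63.5 and 65.1 CPM, all above the negative controls and below the positive controls, a 1.52-fold rise (log2 fold change 0.61, SE 0.0498, edgeR FDR 9.79e-29). DEG raised it to 51.8 and 55.3 CPM (log2 fold change 0.34, SE 0.0552, edgeR FDR 2.34e-07). The POG libraries, at 40.8, 41.3 and 39.5 CPM, overlapped with the negative controls (log2 fold change −0.06, SE 0.0511, edgeR FDR 0.541). Ordered by level, IGFBP6 ran from serum through RES and DEG to the negative controls and POG, and each neighbour in that order differed from the next except the last pair. Between serum and RES the log2 difference was 0.71 (edgeR FDR 7.24e-49). The epithelial and endothelial marker sums ran in the order serum, RES, negative control, DEG, POG, the endothelial one from 56.5 to 59.8 CPM down to 35.3 to 37.3, and their part in the result was not tested.

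IGFBP4, the dominant binding protein, fell with RES to 1550, 1590 and 1590 CPM and with DEG to 1610 and 1610. The log2 fold changes were −0.23 (SE 0.0273, edgeR FDR 6.05e-09) with RES and −0.2 (SE 0.0301, edgeR FDR 1.48e-05) with DEG. All 5 libraries lay under every negative control, positive control and POG library. With POG, at 1770, 1780 and 1770 CPM, the change did not pass (log2 fold change −0.06, SE 0.0274, edgeR FDR 0.324). The summed level per length of IGFBP1 to IGFBP6 was 876 ± 6.35 CPM per kb in the negative controls, 771 ± 10.5 in RES, 842 ± 3.44 in POG and 777 ± 2.28 in DEG (SD, n = 2, 3, 3 and 2).

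IGFBP5 moved against the direction of serum. POG libraries held 0.999, 1.27 and 1.79 CPM and DEG libraries 1.39 and 1.5, all below the negative controls (log2 fold change −1.01, SE 0.184, edgeR FDR 4.59e-07 with POG; −0.92, SE 0.207, edgeR FDR 1.78e-04 with DEG). In RES the libraries lay close together at 1.97, 2.03 and 2 CPM, also below the negative controls, but the change of −0.45 did not pass (SE 0.174, edgeR FDR 0.0627). These levels rested on 45 to 91 reads per library.

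IGFBP3 stood at 2.51, 1.56 and 1.98 CPM with POG, below the negative controls (log2 fold change −0.69, SE 0.179, edgeR FDR 0.00119). The call was lost without negative control replicate 2 (−0.55, edgeR FDR 0.111). SOX9 was at 1.33 CPM with POG. Its log2 fold change was −1.01 against the negative controls (edgeR FDR 5.13e-06) and −1.15 against RES (edgeR FDR 2.8e-10). The other 3 chondrocyte markers were not called in either comparison. COL2A1 (1.08 CPM with POG against 1 in the negative controls) and COL10A1 (1.95 against 1.75) had higher means, and ACAN (0.146 against 0.38) a lower one. The part of these markers in the results for IGFBP3 and IGFBP5 was not tested. DEG libraries held 2.3 and 2.21 CPM of IGFBP3 (log2 fold change −0.53, SE 0.199, edgeR FDR 0.0627). The RES libraries, at 2.4, 3.53 and 2.54 CPM, overlapped with the negative controls (log2 fold change −0.21, SE 0.172, edgeR FDR 0.518).

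IGF2 held 10.1, 10.9 and 9.64 CPM with POG (log2 fold change −0.26, SE 0.0825, edgeR FDR 0.0189), and this call was lost without negative control replicate 2 (−0.15, edgeR FDR 0.471), POG replicate 1 (edgeR FDR 0.06) or POG replicate 3 (edgeR FDR 0.111). With RES, at 10.7, 10.1 and 10.4 CPM, it just missed the threshold (log2 fold change −0.23, SE 0.0824, edgeR FDR 0.0515) and passed without negative control replicate 1 (−0.33, edgeR FDR 0.0327). With DEG it did not pass (11.2 and 10.5 CPM, log2 fold change −0.17, edgeR FDR 0.31).

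IGFBP7 held 555, 561 and 560 CPM with POG, all below both negative controls (log2 fold change −0.16, SE 0.0325, edgeR FDR 4.20e-04), whereas the changes of −0.03 with RES and −0.07 with DEG missed the threshold (edgeR FDR 0.751 and 0.331). The receptor IGF1R ranged from 169 to 187 CPM over the compound libraries, and its changes of −0.07, −0.07 and 0.01 with RES, POG and DEG did not pass (edgeR FDR 0.458, 0.374 and 0.967). IGFBP2 passed in no comparison. In RES its libraries held 2.27, 3.89 and 2.31 CPM, so that replicate 2 stood apart, and the change with RES was 0.27 with all libraries and −0.03 without that replicate (edgeR FDR 0.446 and 0.988).

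**Figure D3:**
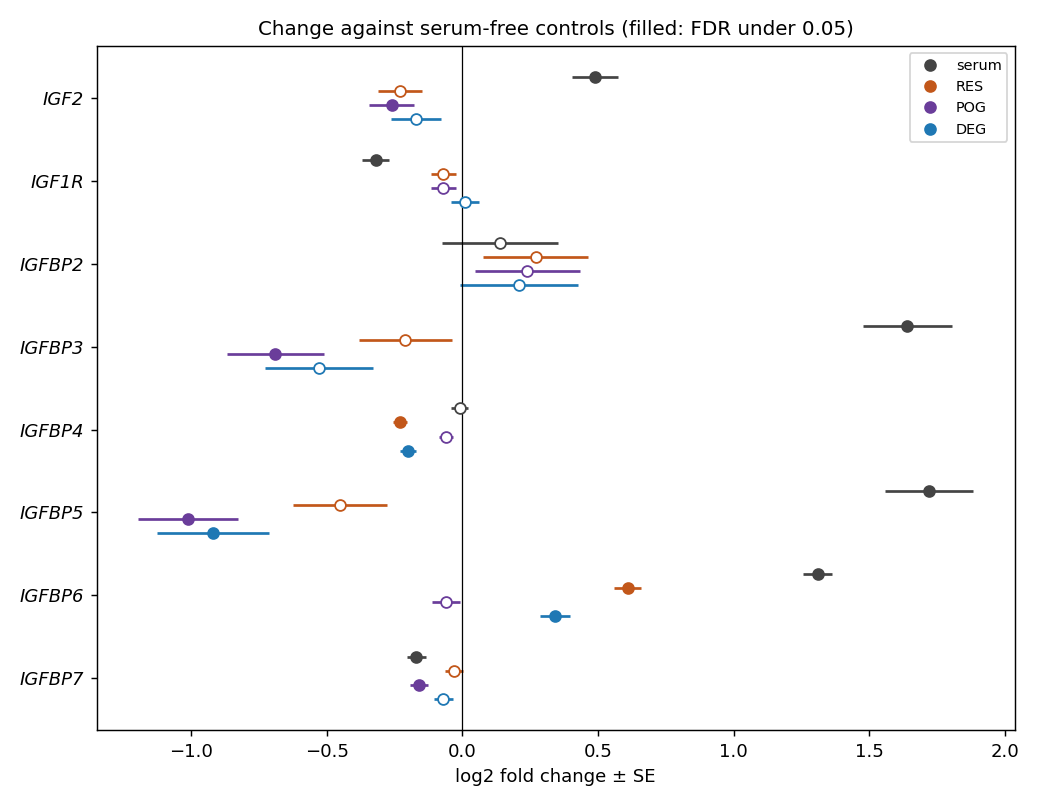
Log2 fold change of each tested member against the negative controls (points) with SE (bars) for serum, RES, POG and DEG; filled points passed an FDR of 0.05. IGFBP3 and IGFBP5 lie at 1.64 and 1.72 with serum and below 0 with each compound, while IGFBP6 lies above 0 with serum, RES and DEG.

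The compounds were then compared directly, at the same dose by mass (1 µg/mL, taken for DEG as above). Molar doses are not given in the sources used here. POG and RES differed in 5 of 8 members, 1 higher and 4 lower in POG, with 27.9% of all genes called (13.7% higher, 14.1% lower). IGFBP6 differed most (log2 difference −0.67, 95% interval −0.75 to −0.58, edgeR FDR 3.62e-46), and no library of one overlapped with the other. IGFBP5 (−0.56, interval −0.91 to −0.21, edgeR FDR 0.00391) and IGFBP3 (−0.48, interval −0.81 to −0.15, edgeR FDR 0.0107) were lower with POG. The IGFBP5 call was lost without POG replicate 1 (edgeR FDR 0.104), and that of IGFBP3 without RES replicate 2 (−0.29, edgeR FDR 0.215) or POG replicate 2 (−0.33, edgeR FDR 0.143). IGFBP7 was lower (−0.14, interval −0.19 to −0.08, edgeR FDR 6.24e-04) and IGFBP4 higher with POG (0.17, interval 0.12 to 0.22, edgeR FDR 5.56e-07). For IGF2, IGF1R and IGFBP2 the intervals of the difference were −0.18 to 0.12, −0.09 to 0.08 and −0.38 to 0.3.

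DEG and RES differed in 1 member, IGFBP6 (−0.26, interval −0.36 to −0.17, edgeR FDR 3.95e-06), with 21.2% of all genes called (10.3% higher, 10.8% lower). DEG and POG differed in 2, IGFBP6 (0.4, interval 0.3 to 0.5, edgeR FDR 3.06e-11) and IGFBP4 (−0.14, interval −0.2 to −0.09, edgeR FDR 0.0114), with 1.05% of all genes called (0.55% higher, 0.497% lower). The IGFBP4 call between DEG and POG was lost on leaving out any 1 of the 5 libraries, with edgeR FDRs between 0.0666 (without POG replicate 1) and 0.253 (without DEG replicate 2). For IGFBP3 and IGFBP5 the difference of DEG and POG had intervals of −0.23 to 0.55 and −0.33 to 0.52, which leave room for changes as large as some that were called.

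**Figure D4:**
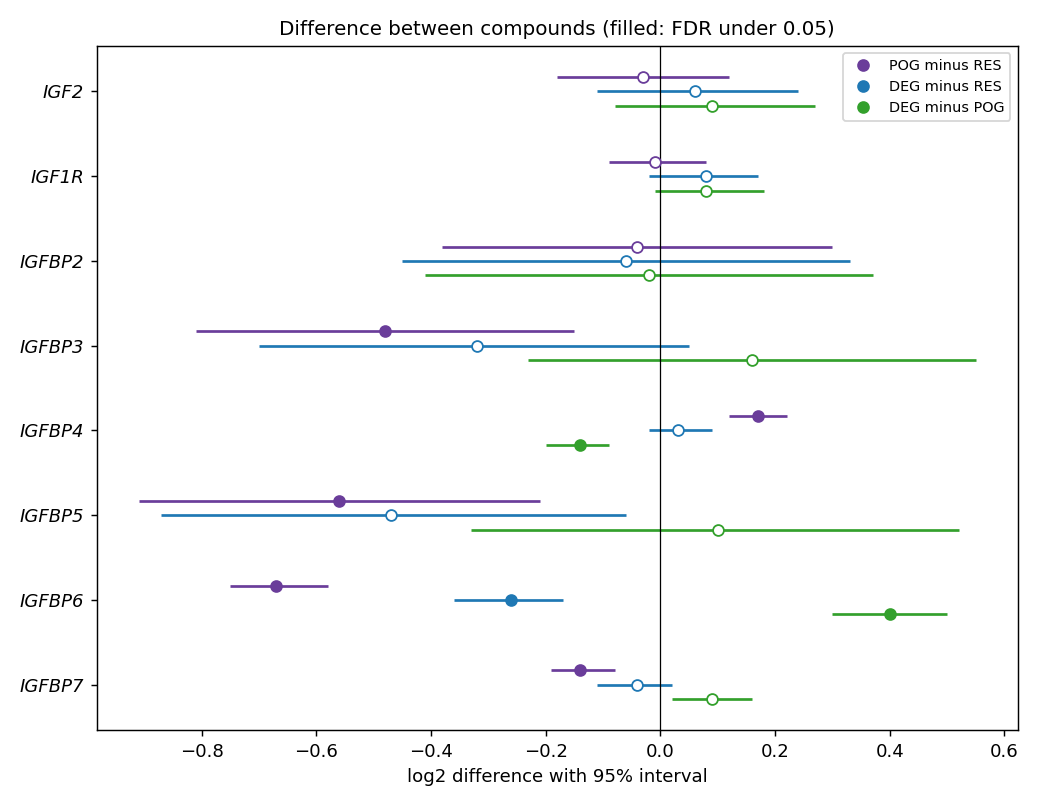
Log2 difference between compounds for each tested member (points) with its 95% interval (bars); filled points passed an FDR of 0.05. IGFBP6 is the member that passed in all 3 comparisons, at −0.67, −0.26 and 0.4.

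The serum libraries were set against each compound only to order the groups: of 8 members, 5 were higher and 2 lower with serum than with RES (45.7% of all genes called, 23.2% higher and 22.5% lower), 4 higher and 1 lower than with POG (47.9%, 24.2% and 23.8%), and 5 higher and 2 lower than with DEG (43.4%, 22.3% and 21.1%). Of the lower members, IGFBP7 lost its call against RES without positive control replicate 2 (−0.05, edgeR FDR 0.0812), and against DEG without that library (−0.01, edgeR FDR 0.858) or without either DEG library. In that order IGF2, IGFBP3 and IGFBP5 separated serum from the negative controls and no other neighbours, IGF1R separated serum from POG, IGFBP4 separated POG from DEG, and no neighbours differed for IGFBP2 and IGFBP7.

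The rest of the pathway was read from lists of other genes. Among the other receptors, IGF2R, which clears IGF2 from the cell surface, fell by 0.55 on the log2 scale with serum (372 and 440 CPM against 594 and 590, edgeR FDR 8.95e-28). IGF2R and IGF1R have long transcripts (14231 and 12235 bases), and both were lowest in positive control replicate 1. The part of the length trend within that pair in their falls was not tested. IGF2R was also lower with each compound, with log2 fold changes of −0.15 with RES (edgeR FDR 0.00886), −0.13 with POG (edgeR FDR 0.021) and −0.15 with DEG (edgeR FDR 0.029). DESeq2 called none of the 3 receptors with a compound. For the insulin receptor INSR the log2 fold change with serum was −0.3, past the threshold with edgeR (FDR 0.0264) but not with DESeq2 (FDR 0.0603).

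Of 8 tested genes that cut or protect the binding proteins, 4 rose and 1 fell with serum (21.4% and 20.9% of all genes), and 0 rose and 5 fell with RES (4.94% and 6.21%), where 6 had an unadjusted p under 0.05 and the quasi-likelihood test and DESeq2 also called 5. With POG 3 fell (8.57% of all genes) and with DEG 4 fell (6.11%), among them ADAM28, which had 3 and 0 reads in DEG and 12 and 10 in the negative controls and for which DESeq2 gave no adjusted p. PAPPA held 303 and 372 CPM with serum, 263 and 271 without it, and 205, 206 and 210 with RES, so these groups did not overlap. Its log2 fold change was 0.34 with serum (edgeR FDR 4.88e-09) and −0.37 with RES (edgeR FDR 3.48e-11). POG libraries exceeded RES libraries in PAPPA (0.27, edgeR FDR 2.51e-08). Its inhibitor STC2 showed the same signs, with log2 fold changes of 0.65 with serum (edgeR FDR 8.01e-62) and −0.27 with RES (edgeR FDR 1.35e-11). The serine protease HTRA1 fell with serum, RES, POG and DEG alike (−0.29, −0.44, −0.3 and −0.4, edgeR FDR at most 3.48e-11), whereas the metalloprotease ADAM12 rose with serum (0.27) and fell with each compound (−0.33, −0.31 and −0.33, edgeR FDR at most 7.06e-06).

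Of 22 tested genes of signalling from the receptor, 5 rose and 10 fell with serum, 1 rose with RES, 3 fell with POG, and 1 rose and 4 fell with DEG. The shares of all genes called in either direction were 42.4%, 11.2%, 14.5% and 9.63%, so that the counts with RES and POG were below or near the background. GRB10, an adaptor that restrains IGF1R and insulin receptor signalling, stood at 181 and 184 CPM with serum and 123 and 125 without it. RES libraries held 136, 140 and 139 CPM, POG libraries 94.2, 90.4 and 93.6, and DEG libraries 108 and 108. The groups did not overlap in GRB10. It rose with serum (0.56, edgeR FDR 3.66e-44) and RES (0.16, edgeR FDR 4.53e-04) and fell with POG (−0.42, edgeR FDR 8.01e-27) and DEG (−0.19, edgeR FDR 8.55e-05). IRS1, an adaptor that carries the signal to PI3-kinase, rose with serum (0.55, edgeR FDR 6.25e-24) and fell with POG (−0.43, edgeR FDR 2.50e-15) and DEG (−0.24, edgeR FDR 5.08e-04). Its level was lower with POG than with RES (−0.5, edgeR FDR 1.23e-26). IRS2, another such adaptor, moved the opposite way with serum, from 86.3 to 63.1 CPM (group means). It also fell with POG (74.6 CPM) and DEG (77.1 CPM), and edgeR called each of these changes. GRB14 rose by 0.67 and PIK3R3 fell by 0.56 with serum (edgeR FDR 2.84e-04 and 2.76e-11). None of the 4 genes listed around the IGF2 transcript (IGF2BP1, IGF2BP2, IGF2BP3 and H19) passed the edgeR exact test in the 7 comparisons of the design. None passed the quasi-likelihood test or DESeq2 there, and at most 2 of them had an unadjusted p under 0.05. Between 1.05% and 42.4% of all genes were called in those comparisons. In the pairs used only to order the groups, H19 was lower with serum than with POG. Its group means were 1.73 and 2.6 CPM (log2 difference −0.57, edgeR FDR 0.00629).

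**Figure D5:**
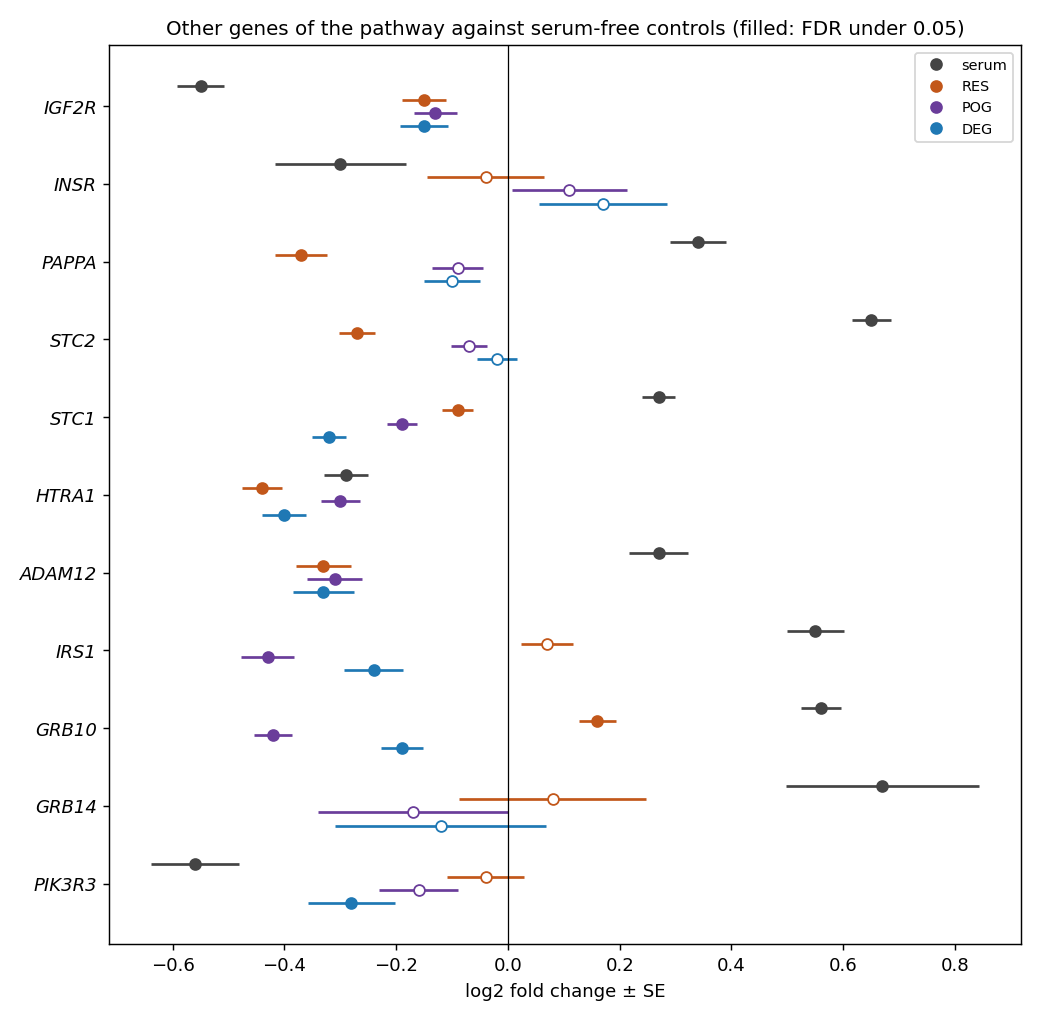
Log2 fold change against the negative controls (points) with SE (bars) of 11 pathway genes; filled points passed an FDR of 0.05. STC2, GRB14, GRB10 and IRS1 lie highest with serum, and IGF2R lies below 0 in every comparison.

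The genes most alike to the 3 members with the highest mean log2 CPM were found by Pearson correlation over the 12 libraries among 13398 genes. For IGFBP4 they were PTMA (0.93) and DNER (0.915), for IGFBP7 CD276 (0.928) and TOR2A (0.923), and for IGF1R RANBP2 (0.972) and NR2C2 (0.971). The points share groups and the positive control pair described above, so these values are a description.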

How the data were processed

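Polyadenylated RNA of hFOB 1.19 cells was sequenced, and the authors deposited whole-number counts of reads for each Ensembl gene in 1 table, not normalized. Per the labels and methods, reads were aligned to hg38 with STAR (BWA MEM is also named) and counted with featureCounts. The tool versions, the annotation release and whether strand or multiply mapped reads were counted are not given in the sources used here. Of 13 labelled samples 12 had a column. The remaining sample, DEG replicate 3, is not analysed here. Replicate numbers follow accession order and are names only.

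Of 43836 Ensembl identifiers 43214 could be given a symbol. Genes were filtered with filterByExpr by group (17092 kept, 99.967% of reads), scaled by TMM and tested with the exact test of edgeR 4.0.16 (R 4.3.3), which the authors named, with dispersions from all 12 libraries (common biological coefficient of variation 3.21%) and Benjamini-Hochberg adjustment over all 17092 genes. A gene was called at an FDR under 0.05. SEs and 95% intervals came from edgeR's quasi-likelihood fit. All 10 pairs of groups were fitted, and 7 make up the design, the pairs of serum with a compound serving only to order the groups. Log2 CPM for correlations used a prior count of 2. Loci and transcript lengths came from GENCODE v44 (hg38), promoters from RefSeq (GRCh38.p14), both builds of the same assembly as the table.

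The members and gene lists were chosen with earlier results of these data known. Named genes were all members and, per pathway list and comparison, the 2 called genes with the largest change among those averaging 1 CPM or more in a group, and their values in the other comparisons were added after these were seen. IRS2 was added beside IRS1 as another IRS adaptor after the results were seen. Scripts were tested on simulated counts. Alternatives were the quasi-likelihood test, DESeq2 1.42.0, DESeq2 size factors, plain totals, no filter, a filter at a mean of 1 CPM, dispersions estimated within the pair of groups alone, an FDR of 0.01, leaving out each library, and merged exons as length.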

Additional observations from a re-analysis of the deposited data

Results flagged for a closer look

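The effects of 2 compounds against the shared negative controls differed, by the direct edgeR exact test, in 8 pairs of a member and a comparison. Of all genes, 27.9% were called between POG and RES, 21.2% between DEG and RES and 1.05% between DEG and POG. Between POG and RES the log2 differences were −0.67 for IGFBP6, −0.56 for IGFBP5, −0.48 for IGFBP3, −0.14 for IGFBP7 and 0.17 for IGFBP4. Between DEG and RES it was −0.26 for IGFBP6. Between DEG and POG it was 0.4 for IGFBP6 and −0.14 for IGFBP4. Leaving out 1 library could undo the calls of IGFBP5 and IGFBP3 between POG and RES (edgeR FDR up to 0.104 and 0.215). The IGFBP4 call between DEG and POG was lost whichever library was left out (edgeR FDR up to 0.253). IGFBP6 was higher than in the negative controls with RES (0.61) and DEG (0.34) and close to them with POG (−0.06).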

How the results depend on the processing

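No paired analysis was possible because the labels carry no replicate numbers that could pair libraries across groups. The quasi-likelihood test, DESeq2, DESeq2 size factors, plain totals, no filter and a mean of at least 1 CPM left each count of called members in the 7 comparisons within 1.5 times its value. With dispersions from the 2 groups compared, the counts were 5 for DEG against the negative control (3 as reported), 2 for DEG against RES (1) and 4 for DEG against POG (2), and at an FDR of 0.01 the last was 1. Leaving out 1 library gave 2 to 4 members for POG against the negative control (2 without negative control replicate 2) and 1 to 1 for DEG against POG. Leaving out 1 library changed a sign for IGFBP4 with serum (−0.08 to 0.07), IGFBP2 with RES (−0.03 to 0.41), IGFBP6 with POG (−0.13 to 0.01) and IGF1R with DEG (−0.01 to 0.03). It did so between POG and RES for IGF2 (−0.08 to 0.01), IGF1R (−0.02 to 0.01) and IGFBP2 (−0.17 to 0.27), between DEG and RES for IGFBP2 (−0.2 to 0.24) and between DEG and POG for IGFBP5 (−0.08 to 0.35). For serum against a compound the ranges that crossed 0 were −0.27 to 0.17 (IGFBP2, RES), −0.02 to 0.12 (IGFBP4, POG), −0.1 to 0.08 (IGFBP7, POG) and −0.15 to 0.02 (IGFBP2, DEG), and plain totals gave −0.02 for IGFBP4 against POG. None of these had passed as reported. The cause was not tested. IGFBP2, IGFBP3 and IGFBP5, at 45 to 174 reads in serum-free libraries, limit what can be told about small changes.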
